A study of Sus scrofa with 36 samples.

Results

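The genes described here fold, export and dispose of proteins in the endoplasmic reticulum (ER) or carry its stress signals, measured in the adrenal glands of 36 pigs. Of 42 listed genes, 38 had a probe on the array, against 11595 reference gene symbols on the whole array, and PDIA4, TRIB3, DERL2 and EDEM1 were left out because they had none. Members were found by the gene name of a probe in the scanner files or by its RefSeq transcript, and 1 probe stood for each gene, that with the highest mean log2 value over the 36 arrays. The 38 genes had 100 probes in all, and 24 of them had more than 1.

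The study asked how pigs adapt to heat. Castrated male growing pigs of 3 breeds, Large White (LW), the local Creole (CR) and their cross (F1, Large White × Creole), lived in 1 climatic room. The thermoneutral pigs (TN, 24 °C) were slaughtered before the room was warmed and the heat stress pigs (HS) after up to 5 days of heat, with 6 pigs in each of the 6 groups, so that heat cannot be told apart from slaughter date and a slightly greater age. Pigs of a breed came from a few litters and shared pens, which the labels do not give, so p-values that treat them as independent may be too small. The array labels give 30 °C for the HS pigs, whereas the protocol gives 32 °C. RNA of a whole ground adrenal sample was hybridised on a 1-colour array, so all cell types of the gland were read together, and fewer cells of a type and less RNA per cell cannot be told apart.

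Nearly every secreted or membrane protein enters the ER through the SEC61 channel, is folded there by chaperones and disulfide isomerases, and is pulled back to the cytosol for destruction when folding fails. When unfolded protein builds up, the sensors IRE1 (ERN1), PERK (EIF2AK3) and ATF6 start the unfolded protein response, which raises chaperones through XBP1 and ATF6, and amino acid and redox genes through ATF4 and DDIT3 (CHOP). Adrenocortical cells carry much smooth ER, where part of steroid synthesis takes place, and the chromaffin cells of the medulla pass neuropeptides and granins through the rough ER.

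All 38 probes were kept for testing and 36 of them were well above background on every array. The exceptions were the probes of SYVN1, a ubiquitin ligase of the ER membrane, on 29 arrays, and of CHAC1, a glutathione-degrading enzyme, on 28. All values below are log2 of the quantile normalized signal, and a difference of 1 is a doubling. Signals of different probes cannot be set against each other. Each array had 42436 to 48060 probes clear of its background, and any 2 arrays correlated at 0.982 to 0.996. Markers of the adrenal cortex and of chromaffin cells were high in every group, with summed levels over the 36 pigs of 19.69 to 20.07 and 18.94 to 19.57, while CYP11B1 and TH had no probe. Within a group the standard deviation between pigs ran from 0.07 to 0.33 over the 38 genes, with a median of 0.14. SSR2, a translocon subunit, varied least and STC2, a secreted stanniocalcin, most.

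In HS pigs, ER folding and stress genes lay close to their TN level. None of the 38 genes passed the limma test of HS against TN (Benjamini-Hochberg adjusted p under 0.05), beside 0.886% of all 45943 probes. At an adjusted p under 0.10 there was 1, DDIT3, beside 2.34%. At an unadjusted p under 0.05 there were 3, beside 13.4% of all probes. As many genes were higher in HS as were lower, 19 each, and their median difference was 0.00. Of the 61 tested probes that were not the brightest of their gene, 20 were higher, 41 were lower and none passed. Many of these 61 belong to the same few genes, and over the array 22972 of 45943 probes were higher. For 33 of the 38 the 95% interval of the difference lay within 0.2 on either side of 0.

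**Figure D1:**
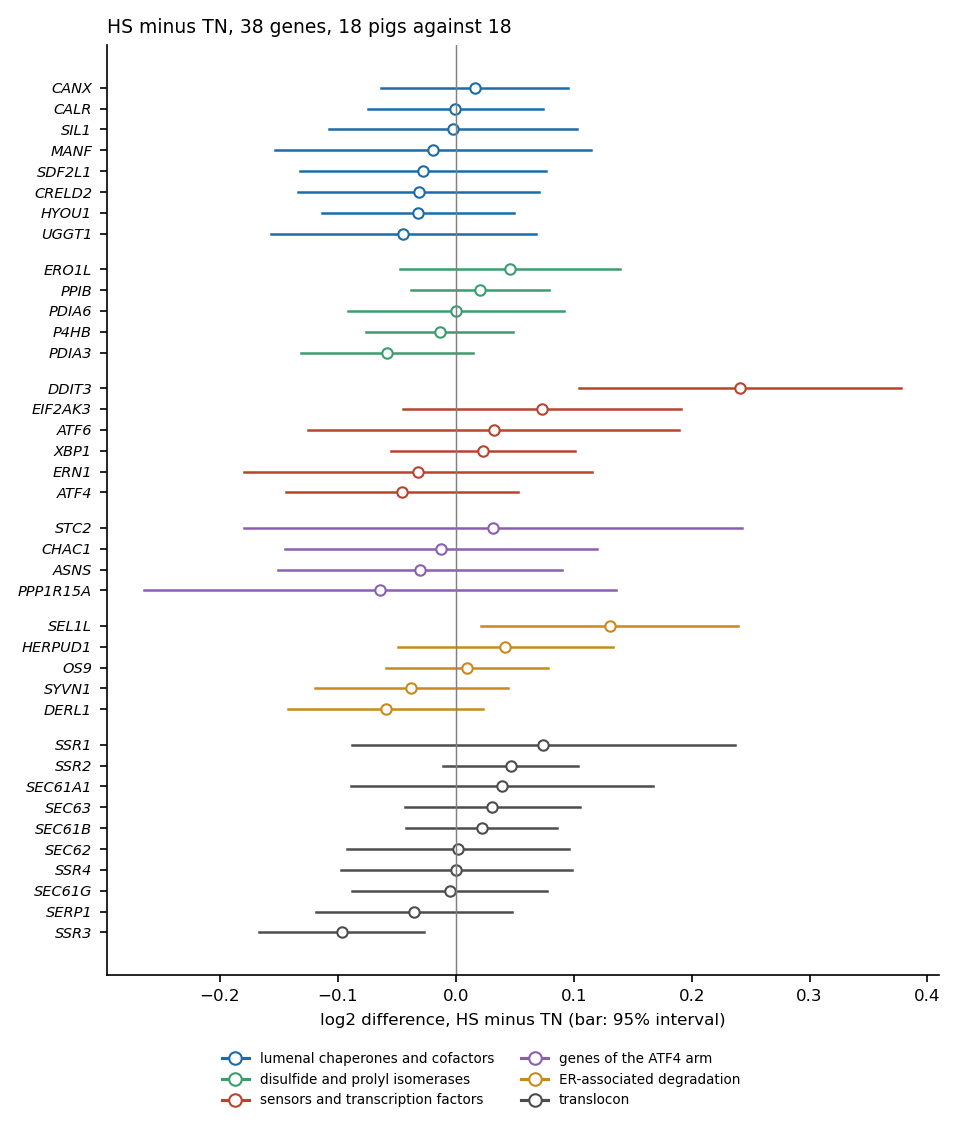
Difference between HS and TN pigs for the 38 genes, by role. Points are log2 differences from the fit with breed, bars their 95% intervals, and 0 is the TN level. Only DDIT3, SEL1L and SSR3 have an interval that leaves out 0, and none of the 38 passed after adjustment.

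Over all breeds 7 of the 8 lumenal chaperones lay slightly below 0, and the group spanned -0.04 to 0.02. By breed, 6 of the 8 were above 0 in Creole HS pigs (-0.05 to 0.15), 7 were below 0 in Large White (-0.20 to 0.02) and 5 in F1 pigs (-0.15 to 0.12). HYOU1, which exchanges nucleotide on BiP, differed by -0.03 (SE 0.04). CALR and CANX, the lectin chaperones calreticulin and calnexin, differed by 0.00 and 0.02. UGGT1, which marks misfolded glycoproteins for another round, differed by -0.04. SDF2L1, MANF and CRELD2, which are induced by ER stress in many cells, differed by -0.03, -0.02 and -0.03, and the BiP exchange factor SIL1 by 0.00. BiP itself (HSPA5) is not among the 38 genes, and it lay at 14.61 to 14.93 in TN pigs and at 14.60 to 14.92 in HS pigs (difference -0.03, SE 0.04).

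SDF2L1 had 6 probes, of which 5 gave differences of -0.03 to 0.04. The remaining probe was not well above background on any array and was not tested. Its letters run against those of a probe of the same gene over 42 bases, of which 30 are shown here to make the orientation visible, in capitals because all 30 are complementary.

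SDF2L1, probe in one direction: GGAAACTTTGGGTTTGTAGGGATTCTTAAG
SDF2L1, probe in the other direction: CTTAAGAATCCCTACAAACCCAAAGTTTCC

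The first read 10.87 to 11.87 over the 36 pigs and the second 5.00 to 5.51. Among the probes whose names start with O, 971 shared at least 20 bases in the same direction with another probe of the same gene name and 63 in the opposite direction. The brightest probe of 18 of the 38 genes is of this kind and none of these 18 could be checked that way, so their strand is not settled. They are SIL1, MANF, CRELD2, UGGT1, PDIA3, PDIA6, PPIB, ERN1, ATF4, ASNS, CHAC1, STC2, SYVN1, SEC61A1, SEC61B, SEC63, SSR3 and SERP1.

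Disulfide and prolyl isomerases likewise stayed within -0.06 and 0.05. PDIA3, which works with the lectin chaperones, was at -0.06 (SE 0.04), and P4HB, the classical protein disulfide isomerase, at -0.01. PDIA6 was at 0.00. ERO1L, the oxidase that recharges them, was at 0.05 and PPIB, an ER cyclophilin, at 0.02.

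Among sensors and transcription factors, DDIT3 stood at 0.24 (SE 0.07) and the other 5 between -0.05 and 0.07. EIF2AK3 ran from 7.30 to 7.94 with a median of 7.66 in TN pigs and from 7.45 to 8.16 with a median of 7.70 in HS pigs, a difference of 0.07 (SE 0.06, 95% interval -0.05 to 0.19). ATF6 ran from 11.11 to 12.36 (median 11.60) in TN and from 11.18 to 12.25 (median 11.74) in HS pigs, a difference of 0.03 (SE 0.08). ERN1 ran from 6.75 to 7.36 (median 7.10) in TN and from 6.54 to 7.49 (median 7.07) in HS pigs, a difference of -0.03 (SE 0.07). The TN and HS ranges of all 3 sensors overlapped. In F1 pigs all 6 HS pigs were above the TN median for EIF2AK3 (0.23) and for ATF6 (0.15), and neither passed.

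XBP1, whose mRNA IRE1 splices, lay at 15.46 to 15.89 (median 15.60) in TN and at 15.30 to 15.82 (median 15.66) in HS pigs, a difference of 0.02 (SE 0.04). Its 10 probes gave differences of -0.06 to 0.02, and 9 of them were below 0. Splicing itself was not measured here. ATF4, which is controlled largely at translation, lay at 15.02 to 15.35 (median 15.12) in TN and at 14.88 to 15.54 (median 15.04) in HS pigs, a difference of -0.05 (SE 0.05). All 7 ATF4 probes were slightly below 0, from -0.09 to -0.05, and none passed (lowest adjusted p = 0.467, limma with Benjamini-Hochberg). Probes of 1 gene share the same RNA samples and are not replicates.

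DDIT3 encodes CHOP, the transcription factor at the end of the PERK arm, and came nearest to a call. In Creole pigs its brightest probe ran from 11.53 to 12.06 with a median of 11.999 in TN and from 12.14 to 12.30 with a median of 12.21 in HS. In Large White pigs it ran from 11.78 to 12.05 (median 11.91) in TN and from 11.85 to 12.78 (median 12.16) in HS. In F1 pigs it ran from 11.66 to 12.28 (median 12.13) in TN and from 11.87 to 12.31 (median 12.20) in HS. Every Creole HS pig was above every Creole TN pig, while the groups overlapped in the other breeds. DDIT3 was the only gene of the 38 whose Creole groups did not overlap, beside 0.174% of all probes, and no gene of the 38 was without overlap in F1 (0.803% of all probes) or in Large White pigs (0.359%). Of the 18 HS pigs, 15 were above the TN median of their own breed.

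**Figure D2:**
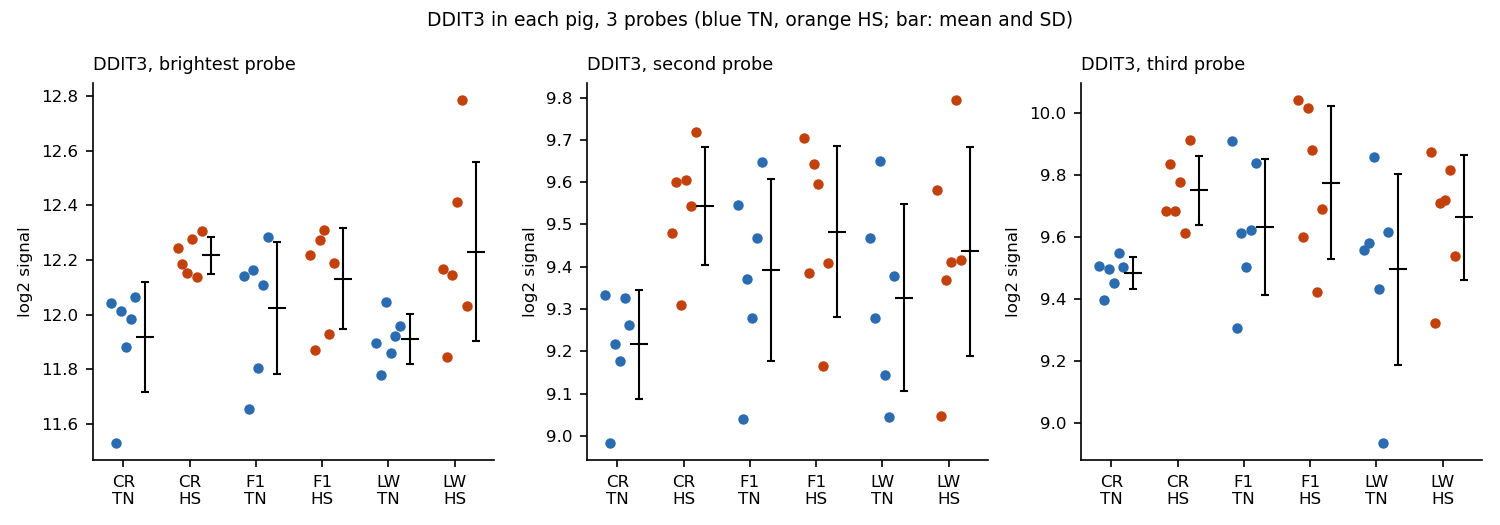
DDIT3 in each pig by breed and temperature for its 3 probes, on the log2 scale. Dots are pigs, 6 per group, and bars give the group mean and SD. With the brightest and with the third probe all Creole HS pigs lie above all Creole TN pigs, and in F1 and Large White pigs the groups overlap with each probe.

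Over all breeds the difference of 0.24 (95% interval 0.10 to 0.38) had an adjusted p of 0.0715 in limma, which is above 0.05 and was not called. It was 0.30 in Creole, 0.32 in Large White and 0.11 in F1 pigs, and the F test of the interaction did not pass (adjusted p = 0.982, Benjamini-Hochberg). The call turned on single settings and single pigs. With slide as a random block the adjusted p was 0.0466 in limma (1 gene of 38 beside 1.74% of all probes) and with slide as a fixed block it was 0.0518 and not called. Without Large White HS pig 2 it was 0.0469 and without F1 TN pig 6 it was 0.0420. Other choices raised the adjusted p in limma. It reached 0.115 over the 36 fits without 1 pig (difference 0.20 to 0.26) and 0.252 over the 18 other settings (difference 0.19 to 0.29). Within the 5 slides the HS minus TN value was above 0 on each, from 0.06 to 0.39, although breeds were not balanced within a slide.

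The other 2 DDIT3 probes have 1 sequence under 2 probe names. It is shown because these probes repeat the measurement with letters that the brightest probe does not hold.

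DDIT3, both other probes: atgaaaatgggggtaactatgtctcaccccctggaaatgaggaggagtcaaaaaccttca

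The second differed by 0.18 (SE 0.07, adjusted p = 0.191, limma) and the third by 0.19 (SE 0.07, adjusted p = 0.155). Both pointed the same way as the brightest probe and neither passed. In Creole pigs the third ran from 9.40 to 9.55 in TN and from 9.61 to 9.91 in HS, again without overlap, and the second from 8.98 to 9.33 in TN and from 9.31 to 9.72 in HS. Although their letters are identical, the second minus the third probe averaged -0.23 with an SD of 0.10 over the 36 arrays. A pair of identical SEC62 probes had an SD of 0.07 and a dim pair of HYOU1 probes 0.17.

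The brightest DDIT3 probe ends in bases that are complementary to a probe of a neighbouring gene. Neither probe was placed on the genome. DDIT3 lies at chr5:22785441-22789867 on Sscrofa11.1 and MARS, a tRNA synthetase gene, at chr5:22752405-22785509, so the annotated genes overlap. The last 20 bases of the probes, in capitals, are complementary, and the last 30 of each are shown.

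DDIT3, brightest probe: ttgtatgtttATTTATTACTGCCCAAATCC
MARS probe: tcactttaatGGATTTGGGCAGTAATAAAT

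The other DDIT3 probes do not hold these 20 bases. Whether RNA of MARS contributed to the brightest probe was not tested.

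No gene of the ATF4 arm passed, and all 4 lay between -0.06 and 0.03. ASNS, asparagine synthetase, differed by -0.03 (SE 0.06), CHAC1 by -0.01 (SE 0.07) and STC2 by 0.03 (SE 0.10). PPP1R15A, the phosphatase subunit that reopens translation after PERK, differed by -0.06 (SE 0.10). Their pig-to-pig spread was wide, and the intervals of this group reached from -0.26 to 0.24.

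In ER-associated degradation, SEL1L, the scaffold of the HRD1 ligase complex, was highest. It ran from 9.57 to 10.02 (median 9.71) in TN and from 9.58 to 10.41 (median 9.82) in HS pigs, a difference of 0.13 (SE 0.05, adjusted p = 0.250, limma) that did not pass, with 14 of 18 HS pigs above the TN median of their breed and a value above 0 on all 5 slides (0.05 to 0.47). Its partner SYVN1 was at -0.04, HERPUD1, a stress-induced adaptor of the same complex, at 0.04, OS9, a lectin that delivers glycoproteins to it, at 0.01, and DERL1, a channel component, at -0.06.

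In the translocon SSR3 was lowest. SSR3, a subunit of the translocon-associated protein complex, ran from 12.67 to 13.04 (median 12.82) in TN and from 12.53 to 12.92 (median 12.74) in HS pigs, a difference of -0.10 (SE 0.03, adjusted p = 0.168, limma) that did not pass, and 14 of the 18 HS pigs were below the TN median of their breed. The other subunits of this complex, SSR1, SSR2 and SSR4, were at 0.07, 0.05 and 0.00. The channel subunits SEC61A1, SEC61B and SEC61G were at 0.04, 0.02 and -0.01, the channel partners SEC62 and SEC63 at 0.00 and 0.03, and SERP1, which protects membrane proteins during stress, at -0.04.

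Other genes of the pathway gave the same count. Of 91 further genes of ER folding, signalling and export, 78 had a probe, 75 were tested and none passed in HS against TN, with a median difference of -0.01. At an unadjusted p under 0.05 there were 10 of 75, of which 8 were lower in HS, beside 13.4% of all probes. HSP90B1, the ER member of the HSP90 family, differed by -0.01 (SE 0.04). The cytosolic chaperones HSPA8 and HSPH1 are given beside them because the same RNA was read. HSPA8 fell from a median of 16.00 (15.55 to 16.42) in TN to 15.42 (14.97 to 15.99) in HS pigs, a difference of -0.57 (SE 0.08, adjusted p = 0.00039, limma), and HSPH1 fell by 0.53 (SE 0.10, adjusted p = 0.00989). Of the cell type markers, only NR5A1, a transcription factor of the adrenal cortex, passed in this comparison, at -0.25 (adjusted p = 0.0254).

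Within single breeds no gene of the 38 passed. The background was 0% of all probes in Creole, 0.0109% in Large White and 0% in F1 pigs, so these comparisons of 6 pigs against 6 called 5 probes in all. At an unadjusted p under 0.05 in limma there were 2, 3 and 5 genes of the 38, beside 4.8%, 6.27% and 12.2% of all probes. Of the 38 genes 26 were higher in HS than in TN pigs in Creole, 20 in F1 and 15 in Large White pigs. Over all 45943 probes the counts were 22615, 23248 and 22589. Genes read in the same pigs are not independent, and nothing is read from these counts. For the interaction of breed and temperature 0 of 38 genes and 0% of all probes passed in limma. HYOU1 alone had an unadjusted p under 0.05 (0.0339, limma), beside 4.21% of all probes, at 0.08 in Creole, -0.03 in Large White and -0.15 in F1 pigs.

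Genes of the list did pass between breeds. Between Large White and Creole pigs 3 of 38 genes passed, ATF6, STC2 and SSR1, all lower in Large White. That is 7.89% of the genes beside 11.3% of all probes called in either direction and 5.38% called lower. With 3 genes, nothing is read from these shares. At an unadjusted p under 0.05 there were 11, beside 24.2%. The median difference of the 38 was -0.03.

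**Figure D3:**
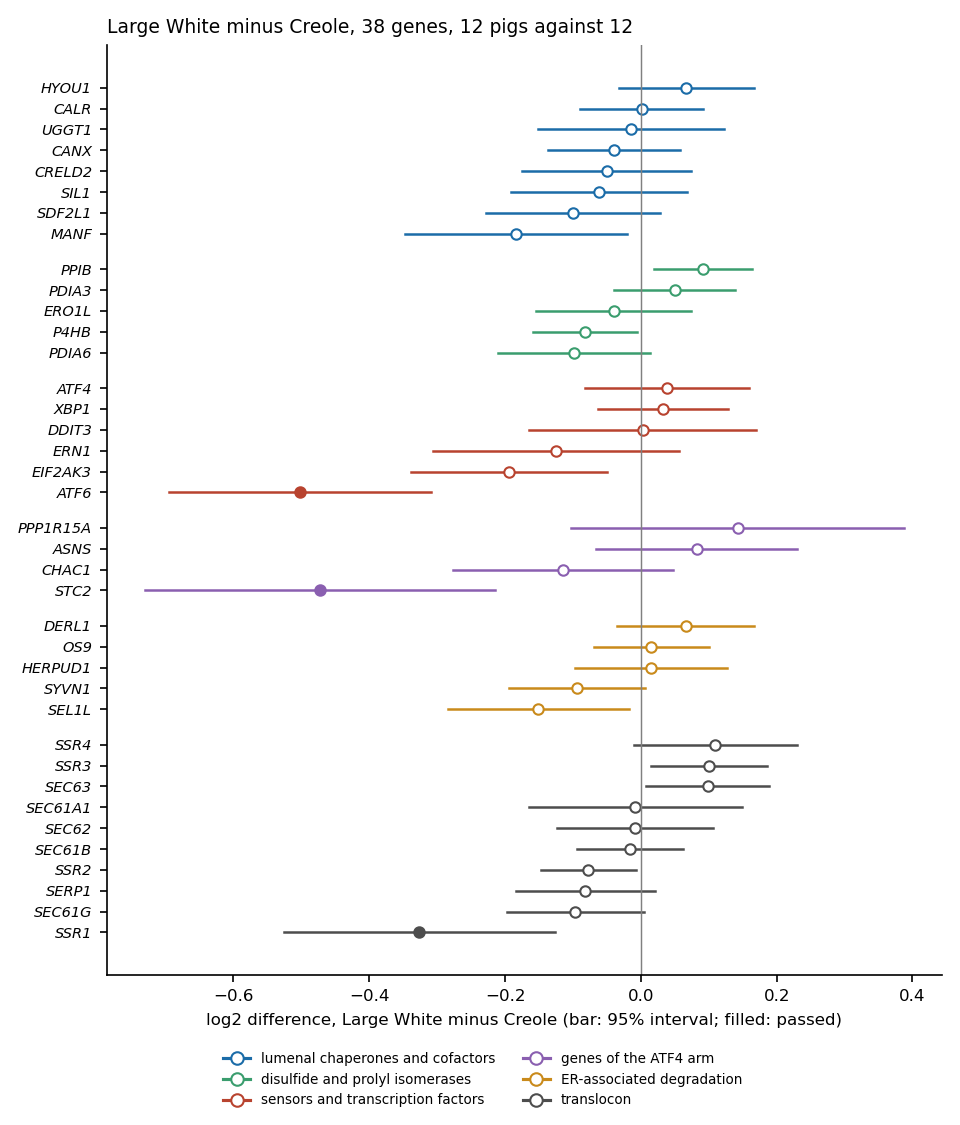
Difference between Large White and Creole pigs for the 38 genes, by role. Points are log2 differences from the fit with temperature, bars their 95% intervals, and filled points passed. ATF6, STC2 and SSR1 lie furthest below 0, at -0.50, -0.47 and -0.33.

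ATF6 encodes the sensor that is cleaved in the Golgi to free a transcription factor (chr4:88591279-88806156, Sscrofa11.1). In Creole pigs its brightest probe ran from 11.16 to 12.36 with a median of 11.94, in F1 from 11.32 to 11.96 with a median of 11.66 and in Large White from 11.11 to 11.72 with a median of 11.43. All 12 Large White pigs were below the Creole median of their temperature, although the ranges overlapped, through Creole TN pig 6 at 11.16 and Creole HS pig 6 at 11.72. The difference was -0.50 (SE 0.09, 95% interval -0.69 to -0.31, adjusted p = 0.000413, limma). It was -0.53 in TN pigs (adjusted p = 0.0205) and -0.47 in HS pigs (adjusted p = 0.0522), beside 3.48% and 2.8% of all probes called, and from -0.75 to -0.30 within the 5 slides.

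This call belonged to 1 of 3 ATF6 probes. The sequences are shown because the probes have different letters and gave different values, the brightest one by its first 30 bases.

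ATF6, brightest probe: caccccccaagggttgtggttgatttttac
ATF6, other probe 1: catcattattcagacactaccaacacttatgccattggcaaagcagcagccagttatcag
ATF6, other probe 2: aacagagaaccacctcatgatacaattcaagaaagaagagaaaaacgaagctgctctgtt

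The first of the others, at 8.58 to 8.97 in Creole and 8.43 to 9.25 in Large White pigs, differed by 0.07 (95% interval -0.07 to 0.22, adjusted p = 0.602, limma). The second, at 6.03 to 6.47 and 5.82 to 6.38, differed by -0.09 (95% interval -0.21 to 0.03, adjusted p = 0.353). Neither interval reaches that of the brightest probe. All 3 are named ATF6 in the scanner files. Which stretch of the gene each reads is not given in the sources used here, and why the probes differ was not tested.

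STC2 (chr16:50989676-51001412) ran from 7.23 to 8.003 with a median of 7.60 in Creole, from 6.82 to 8.01 with a median of 7.24 in F1 and from 6.72 to 7.53 with a median of 7.10 in Large White pigs. The strand of this probe is among those not settled. Every Large White TN pig was below every Creole TN pig, as were 0.94% of all probes, and the groups overlapped under HS. The difference was -0.47 (SE 0.13, adjusted p = 0.0122, limma), with -0.62 in TN (adjusted p = 0.0508) and -0.33 in HS pigs (adjusted p = 0.383), neither of which passed. Without slide 2 (-0.38, adjusted p = 0.0889) or slide 4 (-0.45, adjusted p = 0.0551) it did not pass in limma. Its second probe, well above background on only 22 arrays, differed by -0.17 (SE 0.08, adjusted p = 0.181).

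SSR1 (chr7:4662949-4685892) ran from 13.21 to 13.94 with a median of 13.63 in Creole, from 13.19 to 13.93 with a median of 13.48 in F1 and from 12.92 to 13.80 with a median of 13.37 in Large White pigs. The difference was -0.33 (SE 0.10, adjusted p = 0.0255, limma), with -0.33 in TN (adjusted p = 0.224) and in HS pigs (adjusted p = 0.234), neither of which passed, and 11 of 12 Large White pigs were below the Creole median of their temperature. Its other 3 probes were also below 0, at -0.21, -0.14 and -0.09, and did not pass (adjusted p = 0.0585, 0.197 and 0.304). Without Creole TN pig 2 (adjusted p = 0.0517) or Large White HS pig 5 (0.0505) the brightest probe did not pass in limma, nor without slide 1 (-0.27, adjusted p = 0.117), slide 4 (-0.31, 0.0919) or slide 5 (-0.30, 0.0796).

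**Figure D4:**
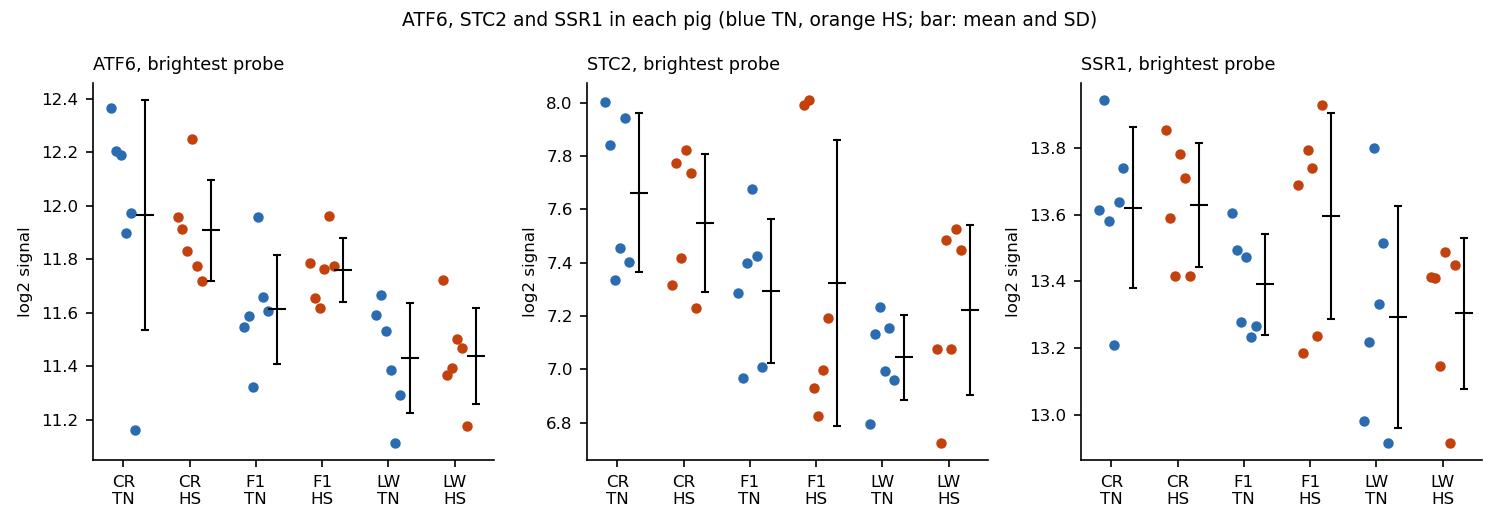
ATF6, STC2 and SSR1 in each pig by breed and temperature, brightest probe of each, log2 scale. Dots are pigs, 6 per group, and bars give the group mean and SD. Over both temperatures the median of Large White pigs is lowest and that of Creole pigs highest, with F1 pigs between, as at 11.43, 11.94 and 11.66 for ATF6.

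Taking on each array the median log2 value over the tested probes of a gene, 0 of 38 genes passed between Large White and Creole (11.3% of all probes). The probes were not centred first, so where their brightness differs this median follows those of middle signal. For ATF6 it gave 0.07, the value of the first of its other probes, and is not a separate check. STC2 was then at -0.32 (adjusted p = 0.0956) and SSR1 at -0.17 (adjusted p = 0.0571, limma). Of the 61 probes that were not the brightest of their gene, 2 passed. A SEC61A1 probe was at -0.24 (adjusted p = 0.00108) while the brightest was at -0.01, and a CRELD2 probe was at -0.32 (adjusted p = 0.0415) while the brightest was at -0.05. Within SEC61A1 the 4 probes pointed in different directions, from -0.30 to 0.22. The 10 XBP1 probes in contrast spanned only -0.04 to 0.08.

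**Figure D5:**
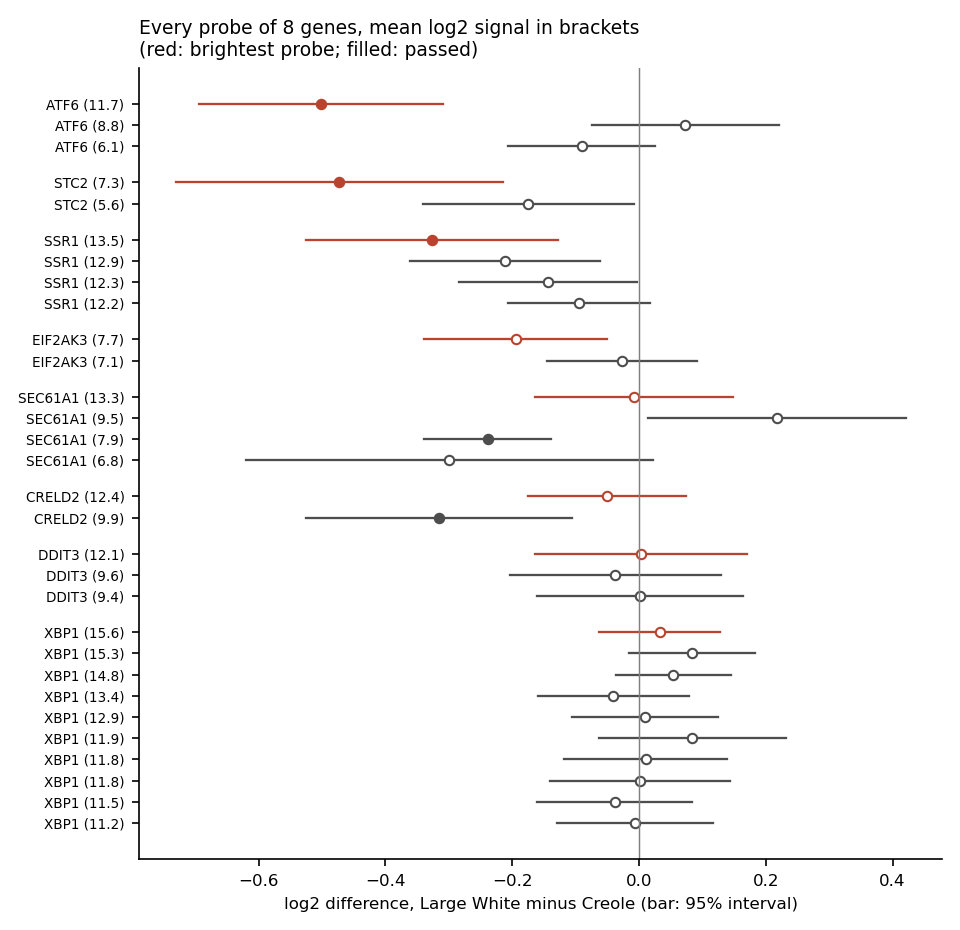
Difference between Large White and Creole pigs for every tested probe of 8 genes. Each line is a probe, with the mean log2 signal over the 36 arrays in brackets, red for the brightest probe, a bar for the 95% interval and a filled point where the test was passed. The ATF6 probes disagree, the SSR1 probes lie on 1 side of 0, and the DDIT3 and XBP1 probes lie around 0.

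EIF2AK3 came next. It ran from 7.61 to 7.99 in Creole and from 7.30 to 7.77 in Large White pigs, with all 12 Large White pigs below the Creole median of their temperature, a difference of -0.19 (SE 0.07, adjusted p = 0.0722, limma) that did not pass. Its other probe was at -0.03. With slide as a fixed block it passed (adjusted p = 0.0205), and so did SEL1L and SSR4, which gave 6 of 38 beside 13.7% of all probes. EIF2AK3 also passed with slide as a random block (0.0389), without slide 1 (0.0446) and without F1 HS pig 1 (0.0477). Without slide 4 ATF6 was the only gene of the 38 that passed, and the calls over all probes went from 5178 to 3752. DDIT3 was at 0.00 (95% interval -0.16 to 0.17), ATF4 at 0.04, XBP1 at 0.03 and ERN1 at -0.12, and none of these passed.

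By its brightest probe no chaperone or isomerase passed between these breeds. MANF, a lumenal factor bound by BiP, was lowest at -0.18 (SE 0.08, adjusted p = 0.147, limma), with its second probe at -0.15. All 5 tested SDF2L1 probes were below 0, from -0.21 to -0.10, and none passed. The 3 CALR probes ran from -0.38 to 0.00 and none passed (lowest adjusted p = 0.0779, limma). PPIB was at 0.09 (SE 0.04, adjusted p = 0.092). HSPA5 was at -0.01 (SE 0.04).

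Among the other pathway genes 6 of 75 (8.0%) passed between Large White and Creole pigs, beside 11.3% of all probes. PHGDH, the first enzyme of serine synthesis, was at 0.45, RPN2 of the oligosaccharyltransferase at 0.21, PRKCSH, the beta subunit of glucosidase II, at 0.18, and CREB3, a membrane-bound transcription factor, at 0.17. Lower in Large White were CEBPB, a transcription factor, at -0.29, and SRP9 of the signal recognition particle, at -0.16. Adjusted p ran from 0.00556 to 0.0434 over the 6 (limma).

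Cell type markers moved with breed as well. Of 5 adipocyte markers 4 were lower in Large White pigs, ADIPOQ at -1.62, FABP4 at -1.33, PLIN1 at -0.90 and CIDEC at -0.59, and LEP was at 0.05. The summed level of the list was 11.57 to 12.99 in Creole and 10.91 to 11.85 in Large White pigs. Of 4 chromaffin markers with a probe 3 were higher in Large White, with the list at 18.94 to 19.34 in Creole and 19.00 to 19.54 in Large White pigs. Of 7 cortex markers 2 were lower, HSD3B1 at -0.78 and STAR at -0.34. The plasma cell marker JCHAIN was lower, at -0.54, 1 of 3 tested. No red blood cell, T cell and macrophage, endothelial or stromal marker passed. The part of tissue make-up in the differences of ATF6, STC2 and SSR1 was not tested.

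The F1 values of ATF6, STC2 and SSR1 over both temperatures lay between those of the parental breeds. ATF6 was at -0.25 against Creole and 0.25 against Large White, STC2 at -0.30 and 0.18, and SSR1 at -0.13 and 0.20. No gene of the 38 passed against Creole (3.88% of all probes), against Large White (1.37%) or against the mean of both (0.409%). Against that mean ATF6 differed by 0.00 (95% interval -0.17 to 0.17). The lowest adjusted p was that of XBP1, at -0.11 (SE 0.04, adjusted p = 0.260, limma), with medians of 15.64 in Creole, 15.57 in F1 and 15.70 in Large White pigs. By the F test over the 3 breeds ATF6 (adjusted p = 0.00155) and STC2 (0.0326) passed, 2 of 38 beside 10.4% of all probes.

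Finally, genes of the list were set against BiP from pig to pig, since BiP is the usual readout of ER load. HSPA5 varied little, between 14.60 and 14.93. With the 6 groups held fixed, the slope on HSPA5 passed for 0 of 38 genes in limma and for 0.00218% of all 45940 probes. HYOU1 had the steepest relation for its error (slope 0.63, SE 0.17, adjusted p = 0.633). As a description over 36 pigs that share normalization and array, its correlation with HSPA5 within groups was 0.60, that of SDF2L1 0.46, of CANX 0.40 and of SEL1L 0.39, and that of ATF6 was lowest at -0.22. Without the highest and the lowest 10% of probes this correlation ran from -0.26 to 0.25 over the array.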

How the data were processed

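Adrenal RNA of 36 pigs was read on 36 1-colour Agilent arrays, 1 per pig. The authors deposited scanner files whose intensity values came from Agilent Feature Extraction 10.10.1.1. The authors also deposited log2 values, which were read in with limma and quantile normalized with preprocessCore. From the scanner files median signals, without control and outlier spots, were quantile normalized, averaged per probe and put on the log2 scale. Probes had to be well above background on 9 or more of 18 arrays of either temperature, which left 45943 of 60305 probes. Differences were fitted in limma 3.58.1 (R 4.3.3) over all kept probes with breed and temperature as terms, and within-breed differences and the interaction with 6 group means. The random effects of the study's model (pen, slaughter day, father and mother) are not in the labels and were left out. P-values were adjusted by Benjamini-Hochberg over all kept probes, and an adjusted p under 0.05 counted as a call. The fit was tested on simulated data. The brightest probe over the 36 arrays stood for a gene, and every gene of the list with a probe is named, with HSPA5, HSP90B1, HSPA8, HSPH1 and up to 5 other pathway genes per direction past the threshold. Members and lists were chosen with earlier results of these data known. Pigs were grouped by breed and temperature from the labels and numbered in deposit order, and because the animals came as littermate blocks in shared pens, pigs of a breed were not all independent, which the p-values ignore. Alternatives were other normalizations, filters, slide as a block, slides or pigs left out, array weights, the variance prior, an adjusted p of 0.10 and the median over probes of a gene. Arrays limit the precision by their number. A probe missing a spot on an array was fitted without it (89 probes).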

Additional observations from a re-analysis of the deposited data

Results flagged for a closer look

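Over 228 sets of 6 pigs, 1 for each of 38 genes in each group, 13 held a pig whose gap to the nearest other pig was past Dixon's 95% limit for the range of the set. Chance alone gives about 1 such set in 20.

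In Creole TN pigs, pig 2 was low for DDIT3 at 11.53 (others 11.88 to 12.06) and high for ASNS at 8.03 (others 7.39 to 7.52). In Creole HS pigs, pig 1 was high for CHAC1 at 6.55 (others 5.44 to 5.79) and pig 6 low for SYVN1 at 5.62 (others 5.79 to 5.84), both dim probes.

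In F1 TN pigs, pig 3 was high for HYOU1 at 14.07 (others 13.85 to 13.92) and low for CRELD2 at 12.16 (others 12.45 to 12.54), and pig 5 was low for CANX at 14.35 (others 14.48 to 14.55) and for ERN1 at 6.82 (others 7.19 to 7.36).

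In Large White TN pigs, pig 3 was high for SDF2L1 at 11.75 (others 11.20 to 11.41) and pig 4 low for SERP1 at 12.12 (others 12.38 to 12.47). In Large White HS pigs, pig 1 was low for PDIA3 at 12.78 (others 13.05 to 13.16) and high for SEC63 at 8.19 (others 8.03 to 8.09), and pig 5 was high for ATF4 at 15.54 (others 14.94 to 15.14). Large White HS pig 5 also had the highest DDIT3 value of the 36 pigs, 12.78.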

How the results depend on the processing

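Littermates could not be paired across temperatures because the labels do not give the litter. Pigs were numbered in deposit order. Between HS and TN pigs the count of 0 genes became 1, DDIT3, at an adjusted p of 0.10 and with slide as a random block, and leaving out each pig gave 0 to 1. Of the 75 other pathway genes 2 passed with slide as a fixed block, EIF2S1 and PPP1R15B (-0.15 and -0.17 without the block), beside 1.94% of all probes. Between Large White and Creole pigs the count of 3 (11.3% of all probes) became 5 at 0.10 (16%), 6 with slide as a fixed block (13.7%), 0 with the median over probes (11.3%) and 1 without slide 4 (3752 probes called in place of 5178), and leaving out each pig gave 2 to 4. By the F test over breeds the count of 2 became 1 with the median over probes (XBP1), 1 without slide 2, slide 4 or slide 5 and 0 without slide 3, while calls over all probes went from 4796 to 4790, 2625, 3750, 3743 and 2002, and leaving out each pig gave 1 to 3. Within breeds, for the interaction, for F1 against the parental mean and for the slope on HSPA5 it was 0 under every alternative run.

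Small HS differences turned sign. XBP1 was at -0.0141 with 75th percentile scaling, -0.0336 with median centring, -0.0498 with the median over its probes and -0.00583 without slide 3. ATF6 was at -0.00512 with median centring and -0.0318 without slide 4, and leaving out each pig gave -0.0154 to 0.0598. ERN1 was at 0.00139 without slide 4, and leaving out each pig gave -0.0579 to 0.00129. The breed difference of ATF6 was 0.0729 with the median over probes, which for ATF6 is the value of its probe of middle signal. SSR1 did not pass without Creole TN pig 2 (-0.29, adjusted p = 0.0517, limma) or Large White HS pig 5 (-0.29, 0.0505). The causes were not tested. Dim probes, as of SYVN1 and CHAC1, lie near background.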
